A study of Rattus norvegicus with 9 samples.

Results

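In alveolar macrophages of rats given nitrogen mustard (NM), some genes stood above the control level both 1 d and 28 d after exposure. Described here are 74 such genes, of the 16101 named genes of the deposited table, chosen by a rule that also set some families aside by name. Alveolar macrophages live in the air sacs of the lung and clear particles, microbes and surfactant. NM (mechlorethamine) alkylates DNA and links its strands. Male Wistar rats of 225 to 250 g, of an age not given in the sources used here, were anaesthetised and instilled through the trachea with 0.125 mg/kg NM or, as controls, with buffered saline (PBS). Lung macrophages were taken at day 1 or day 28 after NM, while the PBS animals carry the label day 0 and the interval between instillation and collection was not given for them. RNA of each group was sequenced as 3 biological replicates, numbered 0, 1 and 2, in 9 libraries of paired reads of 75 bases. Whether a library pooled cells of several rats was not given.

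A gene was taken as a member from its own values. Transcript FPKM (fragment counts scaled to transcript length and library size) was summed per gene symbol, and the group means of log2(FPKM + 1) had to exceed the PBS mean by at least 1 at day 1 and at day 28. In addition, each of the 6 NM libraries had to lie above each of the 3 PBS libraries, which alone held for 4.5% of the genes tested. Of 9885 genes with at least 1 FPKM in at least 3 libraries, 109 met these values (1.1%). Of these, 32 were left out because their symbols fell under families or genes set aside by name (such as Ccl and Cxcl chemokines, Il, Clec, Slc and S100a genes, Spp1 and Apoe), and 3 transcript rows had no symbol. All 74 members passed the filter on low values, but 36 had a PBS mean under 1 FPKM and passed through the NM libraries, so for these a difference was built into the choice. The differences from PBS are therefore given as description, with no test, and both days share the same PBS libraries.

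Tissue macrophages that meet injury switch on sets of genes in common. Type I and II interferons induce antiviral proteins through STAT factors, danger signals induce feedback inhibitors such as Socs3 and survival factors such as Birc3, and monocytes that enter the lung bring surface receptors of their own. Resident and recruited cells can both persist in the air space after an injury. In bulk RNA of this kind, a change in the share of a cell type and a change in RNA per cell cannot be told apart.

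Low PBS levels were favoured by the rule, which needs every PBS library to lie below every NM library, and are given as description only. The median PBS mean of the 74 genes was 1.15 FPKM, against 16.8 FPKM over the 9885 genes, and 13 of them had a PBS mean of at least 5 FPKM. Over the NM libraries the median of their means was 6.73 FPKM, with 15 members at 20 FPKM or more. The median difference from PBS was 1.83 at day 1 (range 1.00 to 4.69) and 1.42 at day 28 (range 1.02 to 3.26) on the log2(FPKM + 1) scale, which makes the change of low genes look smaller than the ratio of their FPKM. Differences of at least 2 were found for 30 members at day 1 and 16 at day 28. Just inside the threshold lay Nabp1 (smaller difference 1), Ets2 (1.01), Kif5a (1.02), Disc1 (1.03) and H6pd (1.05), and just outside it Gdf15 (0.997), Phospho1 (0.985), Chek1 (0.984), Nlrp12 (0.979) and Cd80 (0.978). The plot of levels by library orders the genes by role.

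**Figure D1:**
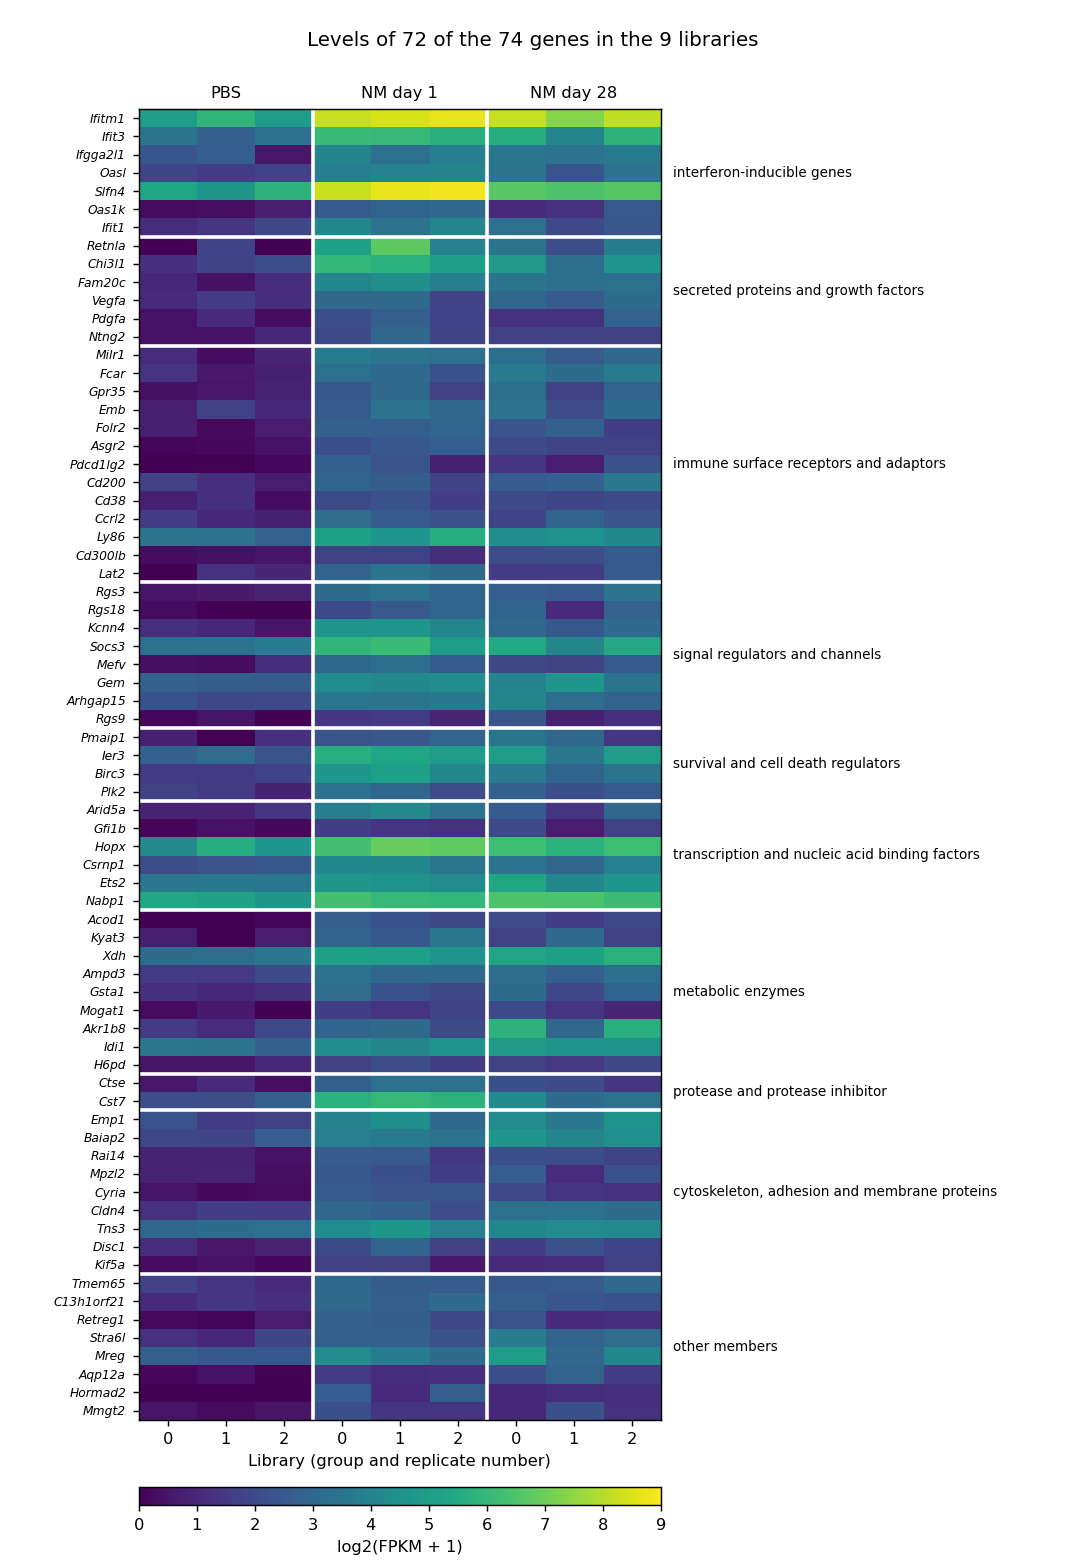
Level of 72 of the 74 genes (rows, grouped by role) in each of the 9 libraries (columns), as log2(FPKM + 1) from dark (0) to yellow (9). Every NM column is brighter than every PBS column of its row, as the rule required, and Ifitm1 and Slfn4 are the most abundant rows after NM.

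The rule set no order between day 1 and day 28, so that difference was tested, with limma's moderated linear model fitted on all 9885 genes and Benjamini-Hochberg adjusted p-values under 0.05 called. Both levels were bounded below by the rule, which limits how far apart they could lie. At day 28, 9 members were called lower than at day 1 and 1 was called higher, Akr1b8. Over all genes tested, 6.88% were called lower and 4.75% higher (11.6% in either direction), against 12.2% and 1.35% of the members (13.5%). In either direction the share called among the members was thus near that over all genes. The members' mean was lower at day 28 for 53 of 74 (71.6%, against 50.4% of all genes), with a median log2 difference of -0.32 beside -0.0038 over all genes. All genes include those that did not rise after NM, so the comparison is not a matched one. In 23 members (31.1%) all day 28 libraries lay below all day 1 libraries, which held for 15.7% of all genes. In 6 (8.11%) they lay above, against 15.1%, and the days overlapped in 45. Fewer members were called when NM day 1 replicate 0, 1 or 2 was left out (5, 6 and 6). Calls over all genes fell as well, from 1150 to 693, 633 and 801. Quantile normalisation gave 5 members higher and 8 lower, and 584 of all genes higher and 603 lower.

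**Figure D2:**
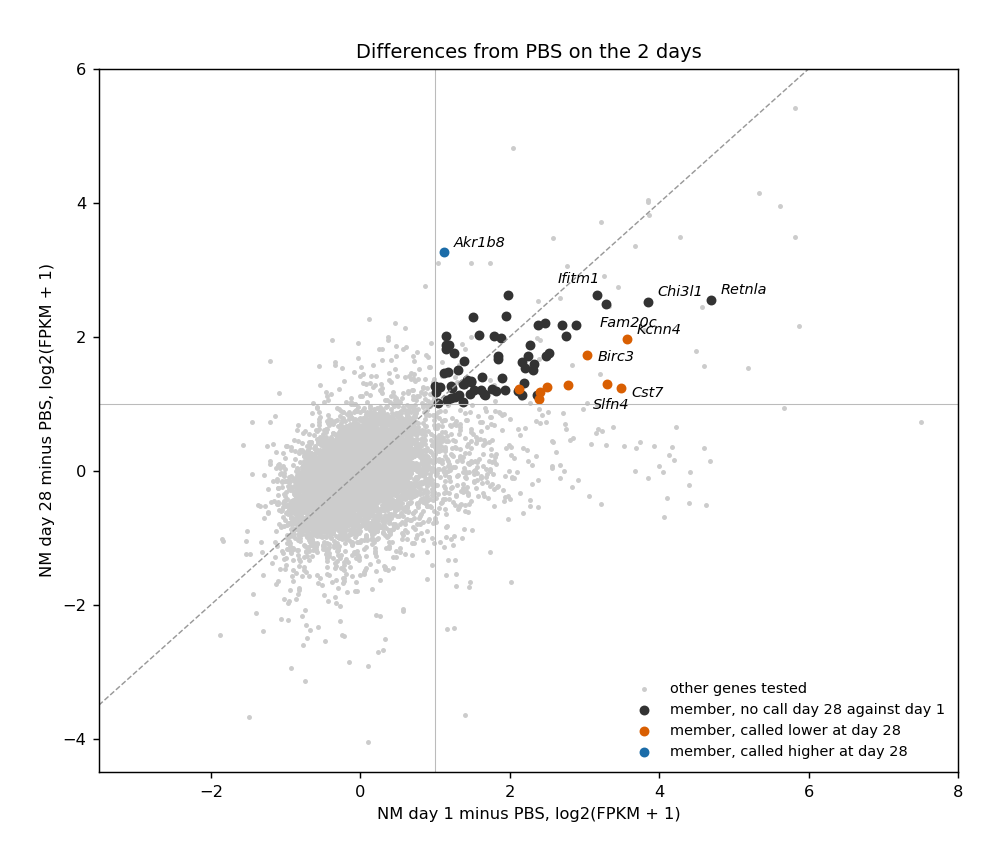
Difference from PBS at day 1 (x axis) against that at day 28 (y axis), both on the log2(FPKM + 1) scale, for all genes tested (grey) and the 74 members (black, or coloured where called between the days); thin lines mark 1 on each axis and the dashed line marks equal differences. Of the members, 53 lie below the dashed line, and Akr1b8 lies far above it at 1.12 and 3.26.

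**Figure D3:**
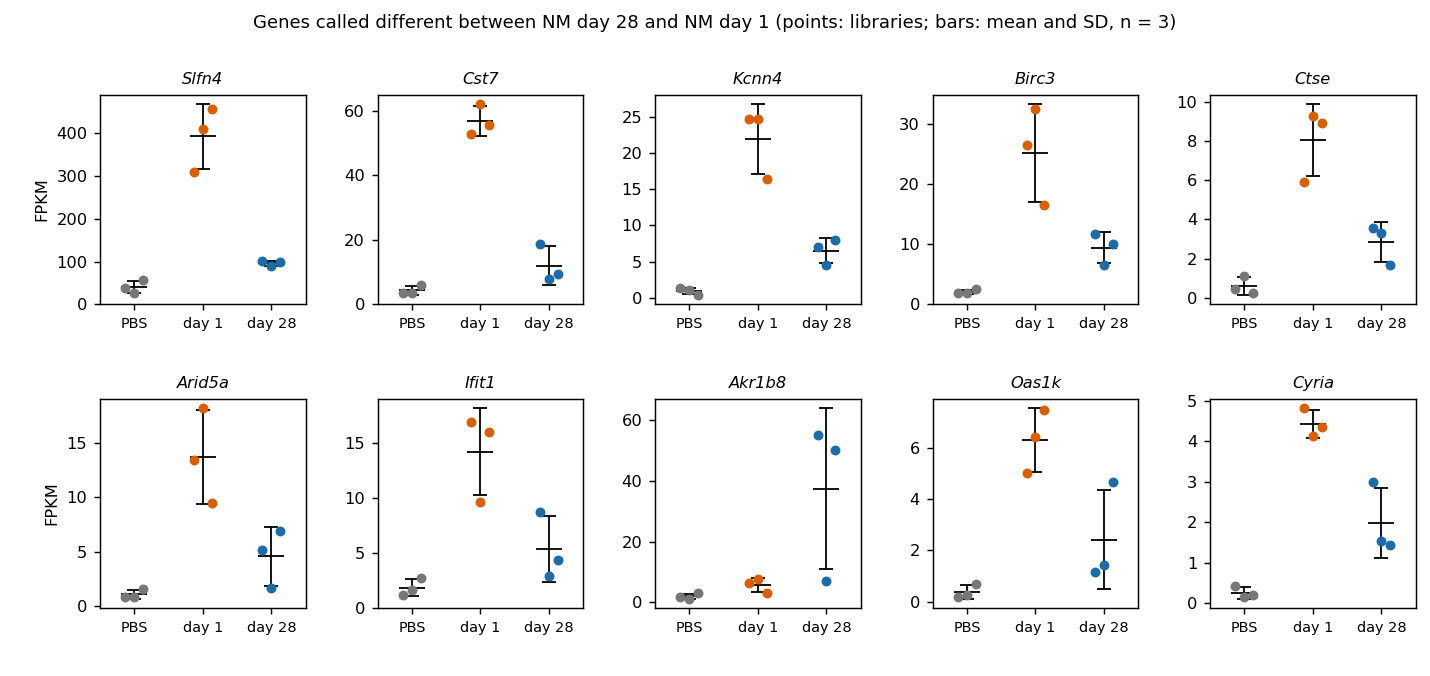
FPKM of the 10 genes called between NM day 28 and NM day 1, for each library (points) with the mean and SD of each group (n = 3). In 9 panels each day 28 library lies below each day 1 library and above each PBS library, while in the Akr1b8 panel 1 day 28 library lies among the day 1 libraries.

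Genes induced by interferons formed one group of 7 members (median difference 2.40 at day 1 and 1.31 at day 28). The roles used here to order the genes were assigned after their values were seen. Ifitm1, a membrane protein that restricts virus entry, had the highest mean over the NM libraries of all members, at 30.9, 57.9 and 30.3 FPKM in PBS, 298, 347 and 409 FPKM at day 1 and 297, 163 and 278 FPKM at day 28, in the order of the replicate numbers. Both NM groups lay far above PBS, with differences of 3.17 and 2.62. Slfn4, a schlafen family gene of myeloid cells, was listed at 38.5, 26.5 and 56.1 FPKM in PBS, 310.0, 411 and 458 FPKM at day 1 and 100.5, 89.2 and 98.4 FPKM at day 28. It was called lower at day 28 (96 ± 6.02 against 393 ± 75.7 FPKM, mean ± SD, n = 3; log2 difference -2.0 ± 0.24 SE, adjusted p = 0.000456 by limma), and its day 28 libraries lay close together. Ifit3 and Ifit1, which bind viral RNA or its complexes, are neighbours in the RefSeq gene order. Ifit3 stood at 9.9, 5.81 and 8.69 FPKM in PBS, 65.6, 63.1 and 49.9 FPKM at day 1 and 47.8, 15.9 and 55.1 FPKM at day 28, the day 28 value of replicate 1 being the low one. Ifit1 stood at 1.25, 1.65 and 2.76 FPKM in PBS, 16.9, 9.64 and 16 FPKM at day 1 and 8.75, 2.96 and 4.39 FPKM at day 28 and was called lower at day 28 (log2 difference -1.32 ± 0.34 SE, adjusted p = 0.027 by limma). The call did not survive the removal of replicate 0 or 2 of day 1, or of replicate 1 or 2 of day 28, the highest adjusted p being 0.103.

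Oas1k, of the family of oligoadenylate synthetases that sense double-stranded RNA, had 0.193, 0.268 and 0.702 FPKM in PBS, 5, 6.43 and 7.46 FPKM at day 1 and 1.16, 1.44 and 4.66 FPKM at day 28 and was called lower at day 28 (log2 difference -1.22 ± 0.35 SE, adjusted p = 0.0439 by limma). Its call ended without PBS replicate 0 or 1, without any single NM day 1 library and without NM day 28 replicate 0 or 1, with adjusted p-values as high as 0.143. Its relative Oasl ranged over 2.17 to 2.73 FPKM in PBS, 13.9 to 15.4 FPKM at day 1 and 4.25 to 10.02 FPKM at day 28, so the days did not overlap, but it was not called (log2 difference -0.87 ± 0.27 SE, adjusted p = 0.0584 by limma). Ifgga2l1, named as an interferon gamma induced GTPase, had 3.43 ± 2.63, 12.6 ± 3.55 and 10.8 ± 1.32 FPKM (mean ± SD, n = 3) in PBS, at day 1 and at day 28, and its days overlapped. Reads of near-identical Ifit, Oas1, Ifitm and Slfn genes may be shared between copies, since the treatment of reads with several matches was not given. Of a list of 27 interferon-stimulated genes tested, which holds Ifit1, Ifit3 and Oasl, 10 higher and 0 lower were called at day 1 against PBS (all genes: 5.28% and 4.58%) and 3 higher and 2 lower at day 28 against PBS (3.07% and 3.98%). Between day 28 and day 1, 1 higher and 9 lower were called, with a median log2 difference of -0.68. Here and in the lists below, counts against PBS include members, whose direction against PBS the rule had fixed.

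The 250 bases before the start of Ifit3 (chr1:241527076-241527325, plus strand, RefSeq, build GRCr8) are shown because they hold both an interferon-stimulated response element and an AP-1 match, and those of Slfn4 (chr10:68491970-68492219, plus strand) for an AP-1 match. Sequences run 5′ to 3′ and end at the base before the start. Capitals mark the matches, which begin 44 and 8 bases before the start of Ifit3 and 133 bases before that of Slfn4.
Ifit3: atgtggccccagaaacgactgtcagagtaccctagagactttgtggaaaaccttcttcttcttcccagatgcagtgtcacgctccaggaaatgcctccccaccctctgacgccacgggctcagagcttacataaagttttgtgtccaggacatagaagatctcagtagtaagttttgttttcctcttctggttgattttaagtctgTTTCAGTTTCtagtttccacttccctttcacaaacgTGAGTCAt
Slfn4: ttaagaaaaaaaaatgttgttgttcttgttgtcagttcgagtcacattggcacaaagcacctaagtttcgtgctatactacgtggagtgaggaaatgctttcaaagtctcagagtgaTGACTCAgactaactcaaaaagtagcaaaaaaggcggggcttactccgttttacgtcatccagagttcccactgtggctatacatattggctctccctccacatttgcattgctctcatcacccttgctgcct

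Among 6 secreted or growth factor genes (median difference 2.48 at day 1 and 2.06 at day 28), Retnla, the resistin-like protein of alternatively activated macrophages, differed most from PBS at day 1 of all members (4.69, and 2.55 at day 28). It was listed at 0, 2.47 and 0 FPKM in PBS, 34.4, 105 and 15 FPKM at day 1 and 10.1, 3.48 and 13 FPKM at day 28. The day 1 libraries spread over 15 to 105 FPKM, yet all lay above the day 28 libraries. The lower level at day 28 was not called (log2 difference -2.14 ± 0.66 SE, adjusted p = 0.0562 by limma) but passed without NM day 1 replicate 2 (adjusted p = 0.0243) or without PBS replicate 1 (adjusted p = 0.0412), which shares the estimate of spread. Fam20c, the Golgi kinase that phosphorylates secreted proteins, stood at 1.02, 0.308 and 1.21 FPKM in PBS, 16.4, 20.7 and 13.5 FPKM at day 1 and 10.1, 8.53 and 8.87 FPKM at day 28. Its groups did not overlap, and the difference between the days missed the threshold (log2 difference -0.80 ± 0.25 SE, adjusted p = 0.0564 by limma) but passed without PBS replicate 1 (adjusted p = 0.0448). Most alternatives left both Retnla and Fam20c uncalled. Pdgfa, which encodes a platelet-derived growth factor chain and is the RefSeq neighbour of Fam20c, ranged over 0.22 to 1.18 FPKM in PBS, 2.55 to 5.53 FPKM at day 1 and 1.45 to 6.11 FPKM at day 28. Vegfa, the endothelial growth factor, ranged over 1.15 to 2.05 FPKM in PBS, 2.6 to 7.62 FPKM at day 1 and 4.98 to 8.08 FPKM at day 28, and Ntng2, a netrin-like membrane-anchored protein, over 0.342 to 1.01 FPKM in PBS, 2.59 to 6.9 FPKM at day 1 and 2.23 to 2.46 FPKM at day 28.

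Chi3l1, the secreted chitinase-like protein YKL-40, stood at 1.32, 2.63 and 3.45 FPKM in PBS, 61, 52.9 and 32.7 FPKM at day 1 and 27.6, 8.43 and 25.4 FPKM at day 28 as the sum of its 2 RefSeq transcript rows. The transcripts were not the same on both days. One row was listed at 61, 51.3 and 32.6 FPKM at day 1 and at or below 0.0119 FPKM in every PBS and day 28 library. The other held the PBS signal (1.31, 2.62 and 3.44 FPKM), stood at 0.00831, 1.65 and 0.0347 FPKM at day 1 and at 27.6, 8.42 and 25.4 FPKM at day 28. With transcript rows taken singly, neither row of Chi3l1 met the rule, and the same was true of the 4 rows of Kcnn4. Between the days the summed level was not called (log2 difference -1.33 ± 0.40 SE, adjusted p = 0.0515 by limma), though it passed without PBS replicate 0 or NM day 28 replicate 0 (adjusted p = 0.0458 and 0.0418). Cuffdiff's split of fragments among transcripts of a gene is an estimate. Of 23 innate sensing and effector genes tested, a list that holds Chi3l1 and Acod1, 3 higher and 2 lower were called at day 1 against PBS, and 2 higher and 2 lower at day 28. Of 20 cytokines, growth factors and receptors, a list that holds Pdgfa and Vegfa, 7 higher and 1 lower were called at day 1 and 3 higher and 0 lower at day 28.

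The Retnla window (chr11:65426187-65426436, minus strand, RefSeq, build GRCr8) is shown for its AP-1 match in capitals, which begins 153 bases before the start.
Retnla: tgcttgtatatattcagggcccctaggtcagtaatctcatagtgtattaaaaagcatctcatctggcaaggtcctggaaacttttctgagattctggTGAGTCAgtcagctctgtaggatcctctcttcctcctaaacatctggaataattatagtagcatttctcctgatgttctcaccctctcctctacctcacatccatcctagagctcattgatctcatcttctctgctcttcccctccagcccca

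Receptors and adaptors of immune cells made up 14 members (median difference 1.91 at day 1 and 1.71 at day 28), none of them called between the days by limma. At an unadjusted p under 0.05, 5 of them differed. Milr1, an inhibitory immunoglobulin-like receptor first known from mast cells, stood at 1.19, 0.236 and 0.925 FPKM in PBS, 12.3, 10.04 and 8.65 FPKM at day 1 and 8.54, 5.05 and 7.4 FPKM at day 28. Fcar, the Fc receptor for IgA, was among the members that were higher at day 28 in mean, at 1.57, 0.543 and 0.711 FPKM in PBS, 9.11, 7.44 and 3.85 FPKM at day 1 and 12.5, 8.01 and 12.1 FPKM at day 28, and its days overlapped. Cd300lb, an activating receptor of myeloid cells, was also higher at day 28, over 0.237 to 0.428 FPKM in PBS, 1.24 to 2.45 FPKM at day 1 and 3.37 to 4.86 FPKM at day 28. Pdcd1lg2, a ligand of the T cell inhibitor PD-1, was at most 0.154 FPKM in PBS and 0.745 to 5.71 FPKM at day 1, the lowest being replicate 2.

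The other receptors were low in PBS as well. Ly86 (MD-1, the partner of the Toll-like molecule RP105) was the exception, over 6.06 to 10.04 FPKM in PBS, 25.5 to 47.4 FPKM at day 1 and 17.1 to 22.9 FPKM at day 28. Folr2, a folate receptor of tissue macrophages, averaged 0.503 ± 0.296, 5.99 ± 0.537 and 4.08 ± 1.85 FPKM in PBS, at day 1 and at day 28 (mean ± SD, n = 3). Asgr2, a subunit of the asialoglycoprotein receptor, averaged 0.206 ± 0.146, 4.45 ± 0.976 and 2.7 ± 0.447 FPKM in the same order. Lat2, an adaptor of immune receptor signalling, averaged 0.824 ± 0.759, 7.9 ± 1.77 and 2.95 ± 1.72 FPKM, and its lower level at day 28 missed the threshold (adjusted p = 0.0519 by limma) but passed without PBS replicate 0 (adjusted p = 0.0273) or without NM day 28 replicate 2 (adjusted p = 0.0273). Cd38, an NAD-consuming surface enzyme, and Emb, an immunoglobulin-like membrane protein, had overlapping levels at the 2 days (differences from PBS 1.22 and 1.24 for Cd38 and 1.84 and 1.72 for Emb). Cd200 (1.25 and 1.75), a ligand that restrains myeloid cells, and Gpr35 (1.79 and 2.01), a G protein-coupled receptor, differed more from PBS at day 28 in mean. Ccrl2 (1.52 and 1.20), an atypical receptor that binds chemerin, did so at day 1. The list of immune membrane receptors and adaptors, which holds Cd300lb and Pdcd1lg2, had 7 higher and 1 lower of 23 at day 1 against PBS and 5 higher and 1 lower at day 28.

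The Fcar window (chr1:78703224-78703473, minus strand, RefSeq, build GRCr8) is shown because its AP-1 match, in capitals, begins 39 bases before the start.
Fcar: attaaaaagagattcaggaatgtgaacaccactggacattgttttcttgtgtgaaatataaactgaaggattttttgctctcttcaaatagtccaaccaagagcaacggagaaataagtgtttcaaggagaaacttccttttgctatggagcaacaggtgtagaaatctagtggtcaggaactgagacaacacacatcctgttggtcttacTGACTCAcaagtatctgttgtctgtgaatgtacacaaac

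Signal regulators and channels gave 8 members (median difference 2.26 at day 1 and 1.52 at day 28). Kcnn4, the calcium-activated potassium channel KCa3.1, stood at 1.33, 1.04 and 0.425 FPKM in PBS, 24.6, 24.7 and 16.3 FPKM at day 1 and 7.04, 4.58 and 7.92 FPKM at day 28 and was called lower at day 28 (log2 difference -1.61 ± 0.27 SE, adjusted p = 0.00311 by limma). Socs3, the feedback inhibitor of cytokine receptors that signal through STAT3, stood at 8.97, 9.49 and 11.8 FPKM in PBS, 57.8, 68.9 and 30.8 FPKM at day 1 and 42.8, 16.5 and 41.8 FPKM at day 28. Replicate 2 at day 1 and replicate 1 at day 28 were its low NM libraries, and the days overlapped. Rgs3, Rgs18 and Rgs9 all speed the shut-off of G protein alpha subunits. Rgs3 stood at 0.419, 0.582 and 0.826 FPKM in PBS, 8.03, 9.28 and 6.57 FPKM at day 1 and 5.41, 4.72 and 10.05 FPKM at day 28, and Rgs18, an Rgs gene of blood cells, at 0.225, 0 and 0 FPKM in PBS, 2.92, 4.72 and 6.69 FPKM at day 1 and 6.42, 1.11 and 6.16 FPKM at day 28. Both kept most of their difference from PBS at day 28 (2.47 and 2.21 for Rgs3, 2.38 and 2.17 for Rgs18), although replicate 1 of day 28 was low for Rgs18. Rgs9 was the lowest of the 3, with an NM mean of 1.81 FPKM. The small GTPase Gem, the Rac-directed GTPase activator Arhgap15 and Mefv, which encodes the inflammasome protein pyrin, stood above PBS at day 1 and day 28 by 1.63 and 1.39 (Gem), 1.48 and 1.32 (Arhgap15) and 2.31 and 1.51 (Mefv).

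Of 4 regulators of survival and cell death (median difference 2.20 at day 1 and 1.74 at day 28), Birc3, the inhibitor of apoptosis cIAP2, stood at 1.97, 1.89 and 2.48 FPKM in PBS, 26.6, 32.7 and 16.6 FPKM at day 1 and 11.7, 6.55 and 10.1 FPKM at day 28. It was called lower at day 28 (log2 difference -1.31 ± 0.27 SE, adjusted p = 0.00893 by limma), and its 3 groups did not overlap. Ier3, an early response gene that modulates apoptosis, ranged over 4.07 to 8.22 FPKM in PBS, 29.8 to 49.2 FPKM at day 1 and 11.1 to 31.7 FPKM at day 28. Pmaip1 (Noxa), a BH3-only protein induced by p53, ranged over 0 to 1.36 FPKM in PBS, 4.01 to 6.61 FPKM at day 1 and 1.71 to 10.4 FPKM at day 28, and the widest spread was at day 28. Plk2, a polo-like kinase that p53 also induces, ranged over 0.778 to 2.38 FPKM in PBS, 3.34 to 9.46 FPKM at day 1 and 3.56 to 5.97 FPKM at day 28. The list of p53 targets and DNA damage genes that holds Plk2 had 5 higher and 0 lower of 15 at day 1 against PBS, and 2 higher and 0 lower at day 28.

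Regulators of transcription and proteins that bind nucleic acids were 7 members (median difference 1.65 at day 1 and 1.26 at day 28). Hopx, a homeodomain protein that does not bind DNA itself and marks alveolar type I epithelium among other cells, stood at 18.1, 47.7 and 25.3 FPKM in PBS, 77.6, 118 and 112 FPKM at day 1 and 72.9, 52.5 and 72 FPKM at day 28. The lowest NM library (52.5 FPKM) lay just above the highest PBS library (47.7 FPKM). The alveolar epithelial markers, Hopx included, summed to 264 to 445 FPKM in PBS, 1070.1 to 3144 FPKM at day 1 and 305 to 412 FPKM at day 28, and their part in the Hopx level was not tested. Sftpc (582 to 2231 FPKM at day 1) and Napsa (168 to 241 FPKM at day 28) made up large parts of these sums. Nabp1, a single-stranded DNA binding protein of the DNA damage response, stood at 39.9, 35.4 and 26.7 FPKM in PBS, 80.1, 63.7 and 61.9 FPKM at day 1 and 89.3, 87.3 and 70.5 FPKM at day 28, and Ets2, an ETS family transcription factor, at 10.9, 11.4 and 10.5 FPKM in PBS, 26.5, 23.9 and 19.3 FPKM at day 1 and 37.9, 17.3 and 25.8 FPKM at day 28. These 2 lay nearest the threshold, and their days overlapped. Arid5a, which stabilises inflammatory messenger RNAs, stood at 0.875, 0.835 and 1.59 FPKM in PBS, 13.4, 18.2 and 9.51 FPKM at day 1 and 5.15, 1.64 and 6.91 FPKM at day 28 and was called lower at day 28 (log2 difference -1.5 ± 0.38 SE, adjusted p = 0.0235 by limma), except without NM day 1 replicate 0 or 1 (adjusted p = 0.075 and 0.102). Csrnp1, an early nuclear protein, and Gfi1b, a zinc finger repressor, stood above PBS by 1.65 and 1.14 (Csrnp1) and by 1.21 and 1.26 (Gfi1b) at day 1 and day 28.

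The Hopx window (chr14:31429163-31429412, plus strand, RefSeq, build GRCr8) is shown for a match to the interferon-stimulated response element, in capitals, which begins 145 bases before the start.
Hopx: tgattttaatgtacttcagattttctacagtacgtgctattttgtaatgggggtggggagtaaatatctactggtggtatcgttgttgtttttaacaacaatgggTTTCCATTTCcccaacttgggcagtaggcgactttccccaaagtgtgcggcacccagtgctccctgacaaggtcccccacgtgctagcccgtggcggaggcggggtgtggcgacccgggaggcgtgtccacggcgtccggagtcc

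Metabolic enzymes were 9 members (median difference 1.31 at day 1 and 1.5 at day 28). Gene by gene, 5 had a lower and 4 a higher mean at day 28 than at day 1, with a median log2 difference of -0.07. Akr1b8, an aldo-keto reductase that clears reactive aldehydes, stood at 1.93, 1.23 and 2.96 FPKM in PBS, 6.53, 7.63 and 3.12 FPKM at day 1 and 55.1, 6.98 and 50.3 FPKM at day 28. It was the 1 member called higher at day 28 (log2 difference 2.14 ± 0.60 SE, adjusted p = 0.0391 by limma). Replicates 0 and 2 of day 28 were the high ones, and replicate 1 lay within the day 1 values. The call ended without any single NM day 1 library or without NM day 28 replicate 0 or 2 (adjusted p from 0.0733 to 0.136), and with only the 6 libraries compared (adjusted p = 0.0602). Without NM day 28 replicate 1 the log2 difference was 3.06. Of the oxidative stress list that holds Akr1b8, 4 higher and 1 lower of 18 were called at day 28 against day 1.

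Xdh, the xanthine dehydrogenase that makes uric acid, stood at 8.11, 8.49 and 11.2 FPKM in PBS, 34.1, 33.1 and 23.1 FPKM at day 1 and 37.3, 33.5 and 52.7 FPKM at day 28. Idi1, the isopentenyl diphosphate isomerase of sterol synthesis, stood at 10.7, 9.93 and 5.78 FPKM in PBS, 20.9, 16 and 22.9 FPKM at day 1 and 28.3, 24.4 and 23 FPKM at day 28, and all its day 28 libraries lay above all its day 1 libraries without being called (log2 difference 0.34 ± 0.23 SE, adjusted p = 0.382 by limma). Acod1, which makes itaconate, was listed at 0 in 2 PBS libraries and ranged over 2.85 to 5.66 FPKM at day 1 and 2.19 to 3.32 FPKM at day 28. Kyat3, a kynurenine aminotransferase, averaged 0.433 ± 0.376, 7.16 ± 3.18 and 4.07 ± 2.95 FPKM in PBS, at day 1 and at day 28 (mean ± SD, n = 3). The remaining enzymes had differences at day 1 and day 28 of 1.31 and 1.5 (Gsta1, a glutathione transferase), 1.43 and 1.36 (Ampd3, AMP deaminase), 1.16 and 1.05 (H6pd, which makes NADPH in the endoplasmic reticulum) and 1.31 and 1.13 (Mogat1, which makes diacylglycerol).

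Cst7 and Ctse, a protease inhibitor and a protease of the endolysosomal pathway, were both called lower at day 28. Cst7, cystatin F, which restrains cathepsins, stood at 3.41, 3.5 and 5.95 FPKM in PBS, 52.9, 62.2 and 55.8 FPKM at day 1 and 18.8, 7.83 and 9.26 FPKM at day 28 (log2 difference -2.25 ± 0.29 SE, adjusted p = 0.000652 by limma). Its day 28 value was highest in replicate 0, and without that library Cst7 no longer met the rule at day 28. Ctse, cathepsin E, stood at 0.443, 1.13 and 0.268 FPKM in PBS, 5.91, 9.24 and 8.93 FPKM at day 1 and 3.56, 3.31 and 1.69 FPKM at day 28 (log2 difference -1.24 ± 0.30 SE, adjusted p = 0.0192 by limma), a call that did not survive removal of day 1 replicate 1, day 1 replicate 2 or day 28 replicate 2 (adjusted p = 0.0806, 0.0697 and 0.0686). Across 18 genes of cathepsins and lysosomal hydrolases tested, these included, 3 higher and 2 lower were called at day 1 against PBS and 5 higher and 0 lower at day 28.

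Cytoskeletal, adhesion and membrane proteins were 9 members (median difference 1.38 at day 1 and 1.29 at day 28). Emp1, a membrane protein of the claudin-like PMP22 family, stood at 4.08, 2 and 2.35 FPKM in PBS, 15.4, 21.3 and 7.08 FPKM at day 1 and 19.1, 11.1 and 24.4 FPKM at day 28. Baiap2 (IRSp53), which links Rac to actin, ranged over 2.7 to 5.38 FPKM in PBS, 9.3 to 14.3 FPKM at day 1 and 16.7 to 24.6 FPKM at day 28, and Cldn4, a claudin of epithelial tight junctions, over 1.44 to 2.1 FPKM in PBS, 3.32 to 7.04 FPKM at day 1 and 8.17 to 9.43 FPKM at day 28. In both, all day 28 libraries lay above all day 1 libraries, and neither was called (adjusted p = 0.0685 and 0.112 by limma). Baiap2 passed without PBS replicate 2 or NM day 28 replicate 1 (adjusted p = 0.0374 and 0.0422). Cyria, a Rac1 binding protein that opposes its signalling, stood at 0.414, 0.144 and 0.188 FPKM in PBS, 4.82, 4.13 and 4.36 FPKM at day 1 and 2.99, 1.54 and 1.43 FPKM at day 28 and was called lower at day 28 (log2 difference -0.90 ± 0.27 SE, adjusted p = 0.0475 by limma). Of 18 alternative fits that gave Cyria a value, 4 kept that call, and leaving out any library other than NM day 28 replicate 0 ended it (adjusted p up to 0.137). Differences at day 1 and day 28 were 1.21 and 1.09 for Tns3, a tensin of focal adhesions, 1.48 and 1.34 for Rai14, an actin-associated ankyrin repeat protein, 1.38 and 1.29 for Mpzl2, an adhesion molecule, 1.37 and 1.03 for the scaffold Disc1 and 1.04 and 1.02 for the kinesin Kif5a. The list of matrix, adhesion and cytoskeleton genes that holds Emp1 had 6 higher and 0 lower of 23 at day 1 against PBS and 2 higher and 0 lower at day 28.

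The Emp1 window (chr4:169943980-169944229, plus strand, RefSeq, build GRCr8) is shown because it holds 2 AP-1 matches, in capitals, which begin 212 and 88 bases before the start.
Emp1: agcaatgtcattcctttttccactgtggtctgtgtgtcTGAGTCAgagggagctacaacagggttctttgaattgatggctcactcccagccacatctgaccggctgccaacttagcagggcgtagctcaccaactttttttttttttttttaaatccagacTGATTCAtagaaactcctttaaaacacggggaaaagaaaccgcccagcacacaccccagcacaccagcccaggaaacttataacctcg

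The last 8 members fit none of these roles. Hormad2, a protein of meiotic chromosomes, was listed at 0 in every PBS library and ranged over 1.11 to 5.57 FPKM at day 1 and 1.01 to 1.34 FPKM at day 28. Stra6l, a relative of the retinol binding protein receptor, ranged over 1.06 to 2.68 FPKM in PBS, 3.65 to 5.93 FPKM at day 1 and 6.28 to 12.8 FPKM at day 28, and Aqp12a, an aquaporin and the RefSeq neighbour of Gpr35, over 0 to 0.367 FPKM in PBS, 1.26 to 2.06 FPKM at day 1 and 2.13 to 6.25 FPKM at day 28. In both, all day 28 libraries lay above all day 1 libraries, without a call. Mreg, melanoregulin, a vesicle transport protein, ranged over 4.56 to 5.59 FPKM in PBS, 7.99 to 19.1 FPKM at day 1 and 6.85 to 30.1 FPKM at day 28. Retreg1, a receptor for autophagy of the endoplasmic reticulum, had differences of 2.11 and 1.19. Those of Tmem65, a mitochondrial membrane protein, were 1.37 and 1.30, those of Mmgt2, a membrane magnesium transporter, 1.26 and 1.09 and those of C13h1orf21 1.77 and 1.22.

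The NM libraries of a group did not contribute alike. Replicate 1 of day 28 was the lowest of its group in 44 of 74 members (59.5%), against 39.2% of all genes tested, and its log2 level lay below the mean of the other two by a median of 0.46. Replicate 2 of day 1 was the lowest in 48 members (64.9%), against 31.6% of all genes. In PBS each library was lowest in 19 to 26 members. The low replicate of day 28 was the lowest in 6 of 7 interferon-inducible members, 6 of 8 signal regulators and 6 of 7 regulators of transcription or nucleic acid binding proteins, and in 3 of 9 cytoskeletal members. Summed FPKM of the members was 853 in that library, against 1242 and 1324 in the other two and 278 to 316 in PBS. Without it 104 genes met the rule, 71 of the 74 among them. Its relative depth, estimated from the modal ratio of its values under 1 FPKM to those of a reference library, was 1.04, close to the 1.07 and 1.12 of the others, while PBS libraries ran from 1.42 to 2.58 and day 1 libraries from 1 to 1.47 (NM day 1 replicate 0 set to 1). Absolute depth is unknown.

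**Figure D4:**
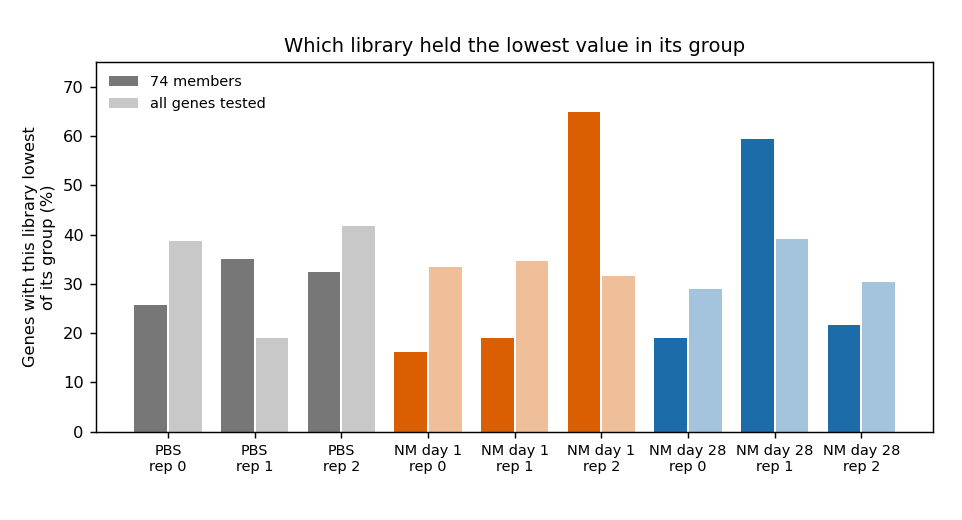
Share of genes (y axis, percent) in which each of the 9 libraries (x axis) held the lowest value of its group of 3, for the 74 members (full colour) and all 9885 genes tested (pale). NM day 1 replicate 2 (64.9%) and NM day 28 replicate 1 (59.5%) stand out among the members.

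Of the marker lists of other cells, the neutrophil list summed to 305 to 484 FPKM in PBS, 742 to 1112 at day 1 and 605 to 1069.9 at day 28, with 5 higher and 1 lower of 10 tested markers called against PBS at day 1 (all genes: 5.28% and 4.58%) and 4 higher and 0 lower at day 28 (3.07% and 3.98%). Among these markers S100a8, S100a9, Csf3r and Cxcr2 met the values of the rule themselves and were left out by name, so their rise is not independent of it. Cxcr1 was the marker called lower at day 1. Of its 16 markers in the table, the granule gene Prtn3 was listed at 0 in both NM groups, Ltf at 0 in PBS and at day 28, Fpr1 at 0 in PBS and at day 1, and Retnlg at 0 in PBS. S100a9 stood at 319.7, 78.3 and 346 FPKM at day 28 and at 416, 299 and 161 FPKM at day 1, lowest in the same 2 replicates as most members. Other neutrophil markers went the other way. At day 28, Lcn2 (3.31, 31.6 and 1.98 FPKM) and Cxcr1 (344, 361 and 343 FPKM) were highest in replicate 1. At day 1, Cxcr1 was highest in replicate 2 (129, 171 and 185 FPKM). The list of monocytes and recruited macrophages overlapped between groups (1106 to 1941, 1209 to 1634 and 1434 to 2329 FPKM), with 8 higher and 0 lower of 16 called at day 1 and 4 higher and 1 lower at day 28. Here too 4 markers met the values of the rule. Cd63 (548 to 1381 FPKM over the 9 libraries) made up a large part of the sums of this list. Ccr2 and Ly6c were listed at 0 in PBS, F13a1 at day 28 and Ace in all groups. Ccr2 ranged over 3.33 to 9.25 FPKM at day 1 and 0 to 0.638 FPKM at day 28. Plac8 ranged over 1.57 to 3.29 FPKM in PBS, 42.1 to 64.4 FPKM at day 1 and 0 to 3.73 FPKM at day 28. Between day 28 and day 1, 1 of the 16 was called higher and 5 lower. The alveolar epithelial list, whose sums stand beside Hopx above, had 11 higher and 0 lower of 18 called at day 1, 1 higher and 3 lower at day 28, and Sftpd listed at 0 throughout. Its sums at day 28 overlapped with PBS, but single markers differed. Aqp5 ranged over 6.02 to 10.7 FPKM in PBS and 0.245 to 1.66 FPKM at day 28. Napsa ranged over 128 to 184 FPKM in PBS and 168 to 241 FPKM at day 28. Natural killer markers were called higher in 2 of 5 at day 1 and 1 of 5 at day 28, with 7 of 11, Gzma, Gzmb, Gzmk and Prf1 among them, listed at 0 at day 28. Resident alveolar macrophage markers summed to 2097 to 3739, 2211 to 2444 and 2107 to 2244 FPKM, with 1 higher and 3 lower of 10 called at day 1, 1 higher and 3 lower at day 28, and Marco and Fabp1 listed at 0 in all 9 libraries. Car4 of this list met the values of the rule and was left out by name, so its rise is not independent of it. T cell markers summed to 23 to 34.4, 66.3 to 74 and 29.9 to 43.2 FPKM, with 3 higher and 0 lower of 9 called at day 1 and 0 higher and 0 lower at day 28. Airway epithelial markers summed to 1553 to 8487, 1543 to 3659 and 909.5 to 1454 FPKM, with 0 higher and 1 lower of 7 called at day 1 and 0 higher and 4 lower at day 28. The part of other cells in the members' levels was not tested.

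Promoters were compared as a property the rule did not use. RefSeq windows of build GRCr8 matched 55 of 74 members (56 windows, Vegfa having 2) and 7715 of the genes tested (8058 windows), and the 250 bases before the start were read. The members' windows were poorer in CpG. A ratio of observed to expected CpG of at least 0.6 was found in 32.1% of them, against 68.9% of all (medians 0.423 and 0.75). Among genes with a PBS mean under 5 FPKM the shares were 25.5% of 47 member windows and 50.9% of 1676 windows. Of 9 motifs searched on both strands (the basal promoter core on the gene's strand alone), AP-1 (TGANTCA) matched 7 of 56 windows (12.5%, all genes 4.74%), in Emp1, Fcar, Idi1, Ifit3, Lat2, Retnla and Slfn4. The interferon-stimulated response element matched 4 (7.14% and 2.76%), in Hopx, Ifgga2l1, Ifit3 and Vegfa, and the core of the basal promoter (TATAAA) matched 5 (8.93% and 4.46%). Shares of members and of all genes were 7.14% and 6.08% for GAS (TTCNNNGAA), 7.14% and 7.66% for C/EBP (TTGCNNAA), 3.57% and 2.48% for PU.1 (GAGGAAGT), 3.57% and 3.08% for CRE (TGACGTCA), 1.79% and 3.61% for CLEAR (CACGTGAC) and 1.79% and 1.48% for NF-kB. The median GC content was 52.8% in the members' windows and 59.6% in all windows. Motif shares were not compared with windows of like base composition or PBS level. A match is a run of letters, and no binding was measured.

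**Figure D5:**
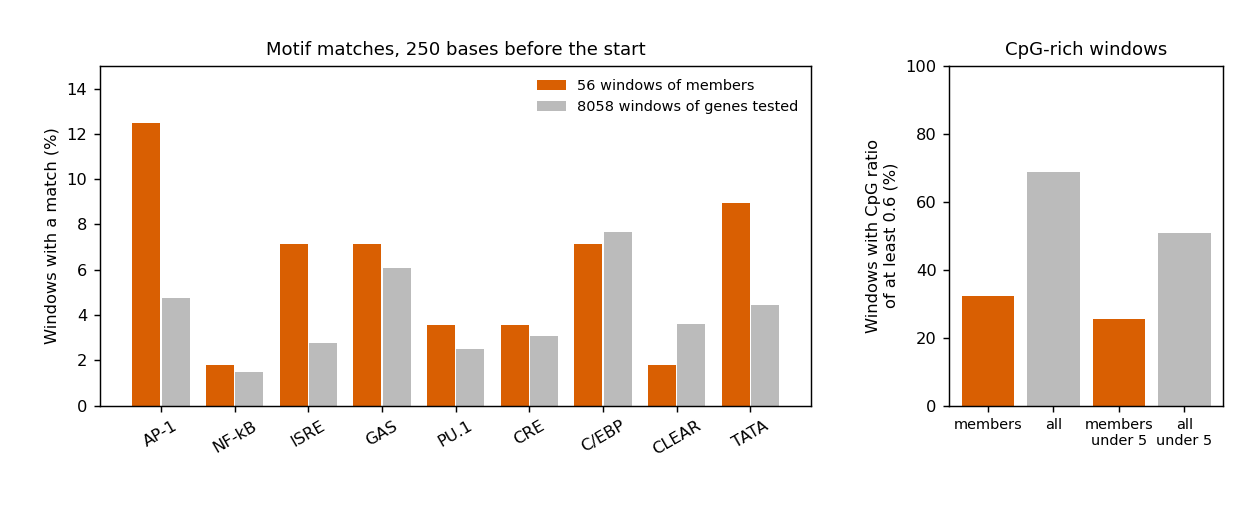
Left, percent of windows of 250 bases before the start that hold each motif, for members (orange, 56 windows) and all genes tested (grey, 8058 windows). Right, percent of windows with a CpG ratio of at least 0.6, for all genes and for those with a PBS mean under 5 FPKM, with members at 32.1% and 25.5%.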

How the data were processed

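The submitters' processing notes name TopHat, Cuffdiff and the rat build rn4, without versions. How multiply mapped reads were handled is not given in the sources used here. FPKM values of 18197 RefSeq transcript rows in 9 libraries were deposited by the authors. A RefSeq table (GRCr8) named 17189 rows (94.5%), and FPKM was summed per symbol, with unnamed rows kept singly (17109 genes). Genes with at least 1 FPKM in at least 3 libraries (9885) entered a linear model of log2(FPKM + 1), fitted by limma 3.58.1 under R 4.3.3 (eBayes with trend, 3 group means, all 9 libraries), with Benjamini-Hochberg adjustment over all genes and a threshold of 0.05. Errors are SD of FPKM or SE of fitted differences. Other steps used Python 3.11.15, pandas 2.3.3, numpy 2.4.6, and for plots matplotlib 3.10.9.

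The members, the gene lists, the cell type markers and the 9 motifs were chosen with earlier results of these data known. Genes with values in each library were the 12 with the largest smaller difference from PBS, the 8 highest in NM and in PBS, and those called between the days; list members and threshold neighbours are also named. Values of 2 members are not reported here, though counts and medians include them. Relative depth limits low FPKM values. Alternatives were pseudocounts of 0.1 and 5, other filters, 2 scalings, single transcripts, a replicate factor, 6 libraries, robust eBayes and each library left out.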

Additional observations from a re-analysis of the deposited data

Results flagged for a closer look

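The differences of NM day 1 and NM day 28 from the shared PBS group were unequal by limma's test of day 28 against day 1 for 10 members. That was 13.5% of the members, near the 11.6% called over all genes tested. The log2 difference was -2.0 for Slfn4, -2.25 for Cst7, -1.61 for Kcnn4, -1.31 for Birc3, -1.24 for Ctse, -1.5 for Arid5a, -1.32 for Ifit1, -1.22 for Oas1k and -0.90 for Cyria, each with all 3 day 28 libraries below all 3 day 1 libraries. For Akr1b8 it was 2.14, with 2 of 3 day 28 libraries above all day 1 libraries. The calls were not equally firm: Cyria kept its call in 4 and Oas1k in 6 of 18 alternatives, and Akr1b8 in 9 of 19.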

How the results depend on the processing

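Against 74 members, pseudocounts of 0.1 and 5 gave 137 and 15, all 74 and 15 of them shared, and other settings gave 67 to 104, with 68 to 104 where 1 library was left out. Of the 74, 42 met the rule with each library left out in turn. Against 10 members called between day 28 and day 1, pseudocounts of 0.1 and 5 gave 6 and 17, no filter gave 4, and leaving out 1 library gave 5 to 10. Over all genes the 2 pseudocounts gave 1028 and 1142 calls and no filter gave 896, against 1150 in the main fit. Of the 10 genes, Slfn4, Cst7 and Kcnn4 kept their call and direction in all 19 alternatives. With single transcripts, the row with the lowest p stood for its gene, which favours a call for Kcnn4 with its 4 rows. Birc3 kept its call in all but 1 alternative (no filter, adjusted p = 0.0549 by limma). The others lost it in 3 to 14, and none reversed. Retnla, Fam20c, Chi3l1, Lat2 and Baiap2, not called in the main fit, passed in some alternatives but stayed uncalled in most. Over all genes, calls numbered 633 to 1403 between the NM days with 1 library left out, 318 to 1374 for NM day 1 against PBS (582 with no filter) and 271 to 793 for NM day 28 against PBS (266 with no filter, 433 with only the 6 libraries). The cause of these shifts was not tested; with 1 library out, 2 stand for a group, and a lower filter tests more genes. Deviations from the group means correlated at -0.104 to 0.196 over the 9 same-numbered pairs of libraries. With 3 libraries a group, these values cannot settle whether the replicate numbers pair the libraries. With the replicate block 11 members were called, 1 higher and 10 lower, and 1053 of all genes. Values under 1 FPKM, as for 36 members in PBS, rest on few fragments.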

Other observations

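The 3 transcript rows without a symbol that met the values of the rule had differences from PBS of 4.60, 1.40 and 1.49 at day 1 and 1.57, 1.81 and 2.0 at day 28, and the first was listed at 0 in all PBS libraries. Another 16 genes had both differences at 1 or more but at least 1 NM library at or below a PBS library. Of the 74 members, 3 pairs were next to each other in the RefSeq gene order of the genes in the table: Ifit3 and Ifit1, Pdgfa and Fam20c, and Gpr35 and Aqp12a.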
